A study of Mus musculus with 2 samples.

Results

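Caseins and whey proteins are the proteins that a lactating mammary gland secretes into milk. The 10 genes described here were the 5 mouse casein genes (Csn1s1, Csn1s2a, Csn1s2b, Csn2 and Csn3), the major whey protein genes Lalba and Wap, and Glycam1, Lao1 and Cel, whose products are found in the aqueous phase of milk. They were found by symbol in GENCODE mouse release M21, and all 10 were among the 55536 genes of the deposited table. The series holds 1 RNA sequencing library of a mammary tumor per treatment, both from MMTV-PyVT mice. The control treatment was the solvent dimethyl sulfoxide (DMSO), and the other was cyanidin-3-glucoside (C3G), an anthocyanin pigment of berries. Both groups carry the transgene, in which the long terminal repeat of mouse mammary tumor virus drives the polyoma middle T antigen, and no tumor-free gland was analysed here. Treatment started at ductal hyperplasia, and tumors were collected at a set burden. Dose, age, strain background and reproductive state are not given in the sources used here. With 1 library per group there is no spread between animals and no test, so C3G cannot be told apart from other differences between the 2 tumors.

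Caseins fall into calcium-sensitive caseins, which bind calcium phosphate through phosphorylated serines, and kappa casein, which coats the micelle and keeps it in solution. Alpha-lactalbumin, the product of Lalba, joins the galactosyltransferase B4galt1 to make lactose. In the normal gland, prolactin acting through its receptor, JAK2 and STAT5 drives these genes during pregnancy and lactation, together with glucocorticoids and the transcription factor ELF5.

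STAT5 binds sites of the form TTCNNNGAA, a motif that reads the same on both strands. RefSeq promoter windows (build GRCm38.p6, 250 bases before to 50 after the start site) were held for 8 of the 10 genes; Csn1s2b and Csn3 had no entry. The motif lay in 4 of these 8 windows, against 8.30% of all 32851 windows of that length and 9.55% of the 27025 genes with a window. With no window for Csn3, the motif could not be compared between kappa casein and the calcium-sensitive caseins. The stretches of 29 bases around the motif are shown because 3 of the 4 belong to calcium-sensitive caseins, which stood far below kappa casein in both tumors. Each runs 5′ to 3′ on the gene's own strand, with the motif in capitals.
Csn1s1: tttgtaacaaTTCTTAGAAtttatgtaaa
Csn1s2a: ttatagtgctTTCTTAGAAttacaatgac
Csn2: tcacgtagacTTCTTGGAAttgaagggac
Glycam1: gccaactcatTTCCCAGAAacaccaattc
The Csn1s1 stretch is chr5:87666098-87666126 on the plus strand, and its motif begins 100 bases before the RefSeq start site. The Csn1s2a stretch is chr5:87774460-87774488 on the plus strand. Its motif begins 20 bases after the RefSeq start site and 97 bases before the start of the principal GENCODE transcript. The Csn2 stretch is chr5:87699500-87699528 on the minus strand, with the motif 93 bases before the RefSeq start site and inside an exon of the principal GENCODE transcript of the gene, which starts further upstream. The Glycam1 stretch is chr15:103565208-103565236 on the minus strand, with the motif 145 bases before the start site. Csn1s1 and Csn1s2a held the same 9 letters, TTCTTAGAA. The windows of Lalba, Wap, Lao1 and Cel did not hold the motif, and that of Lao1 began inside an annotated exon. The promoter of Lalba is printed as that of the more abundant of the 2 major whey protein genes, from the 5′ end of its window to the first annotated exon (chr15:98482722-98482933, minus strand, 212 bases).
Lalba: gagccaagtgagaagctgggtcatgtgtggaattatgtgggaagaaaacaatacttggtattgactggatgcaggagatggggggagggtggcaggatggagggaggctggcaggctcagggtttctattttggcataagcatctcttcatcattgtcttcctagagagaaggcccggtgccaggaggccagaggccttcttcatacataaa
A match to these letters is a description of the sequence and not a measured binding site.

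Values are in TPM (a relative transcript abundance), which is a level per gene length on a fixed library total. Reads per gene were recovered from TPM and gene length, with totals of 12192275 (DMSO) and 16081110 (C3G). Each interval after a level or ratio is an exact 95% interval for counting error alone, and reads carry no molecular identifiers that would mark them as separate molecules. The labelled tissue was checked against epithelial markers, and all 12 luminal markers reached 5 TPM in at least 1 library, among them the keratin Krt8 at 1890 TPM under DMSO and 1420 TPM under C3G and the adhesion gene Epcam at 1484 and 1399 TPM. The summed level of the 12 luminal markers was 8857 TPM with DMSO and 6847 TPM with C3G. Of these 12, 4 were higher with C3G and 8 lower, with a median log2 ratio of -0.09. Krt18 alone stood at 2824 and 1769 TPM. The median hides a wide spread. The lowest log2 ratios were those of Krt19, at 678 and 246 TPM (-1.46), and Foxa1, at 19.2 and 7.49 TPM (-1.25). The highest was that of Prom1, at 31.8 and 53.7 TPM (0.74). The 9 basal and myoepithelial markers summed to 1195 and 614 TPM, and the 10 adipocyte markers to 243 and 1375 TPM. Among the 9 basal and myoepithelial markers, 7 were lower, with Acta2 at 712 and 318 TPM, and 2 were higher, Krt5 and Trp63. The 8 endothelial markers summed to 36.0 and 93.1 TPM, and the 8 leukocyte markers to 54.4 and 44.5 TPM. Ribosomal RNA loci took 0.308% of reads with DMSO and 0.654% with C3G. The part of these shifts in the values that follow was not tested, and in bulk tissue fewer cells of a type cannot be told apart from less RNA per cell.

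Among the 10 genes, nearly all RNA in both tumors was that of Csn3 and Lalba. The 10 genes together summed to 15548 TPM under DMSO and 16988 TPM under C3G, or 1.55% and 1.70% of all TPM. As a share of reads they took 1.70% (Wilson 95% interval 1.69 to 1.71) and 1.63% (1.62 to 1.63), so that the order of the tumors differed between these units. Csn3 made up 68.2% of the summed TPM of the 10 genes with DMSO and 60.0% with C3G, and Lalba 31.6% and 39.4%. The other 8 genes together summed to 41.5 and 102 TPM.

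**Figure D1:**
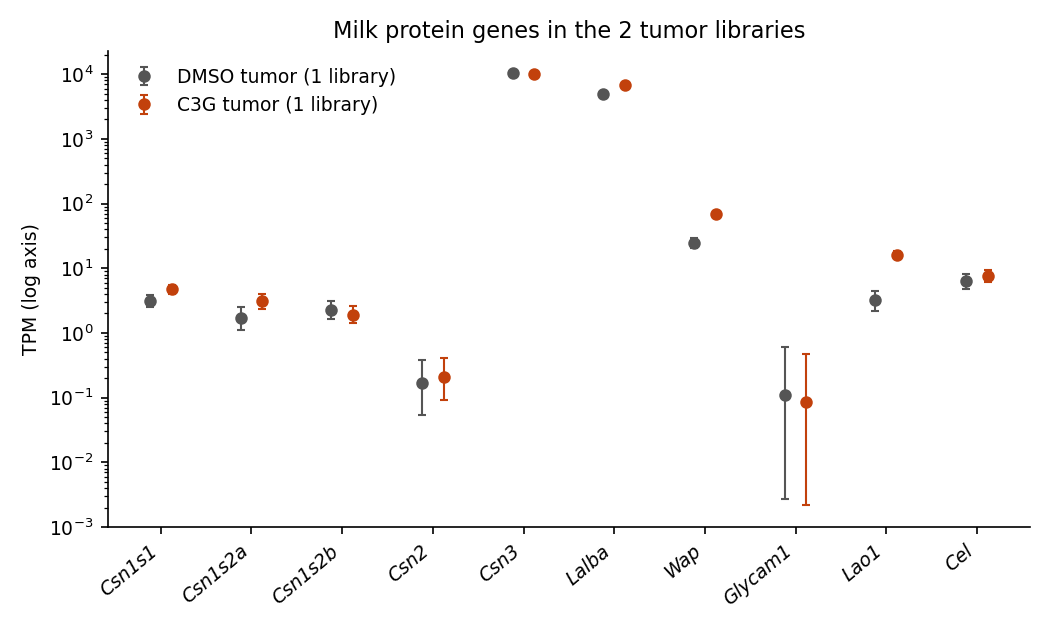
TPM of the 10 milk protein genes (log axis) in the DMSO tumor (grey) and the C3G tumor (orange), 1 library each, with bars for the exact 95% Poisson interval of the recovered reads. Csn3 and Lalba stand at 4909 TPM or more in both tumors, Wap at 24.7 and 68.4 TPM, and the other 7 genes below 17 TPM.

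Kappa casein was one of the most abundant transcripts of either tumor. Csn3 (ENSMUSG00000001622, mm10 chromosome 5, 87925579 to 87932665, plus strand) stood at 10598 TPM (10550 to 10645) with DMSO and 10186 TPM (10145 to 10228) with C3G, from 190770 and 232394 reads. By level it was gene 6 of all in the DMSO library and gene 5 in the C3G library. Its ratio of C3G to DMSO was 0.961 (0.955 to 0.967). This difference exceeded counting error but was small beside the spread of the 108 genes with a mean of at least 1000 TPM, whose log2 ratios ran from -1.29 to 1.15. Of those 108 genes, 15 had a log2 ratio nearer to 0 than that of Csn3. The log2 ratio of Csn3 was -0.06, and its sign turned to 0.04 when ratios were centred on the luminal markers.

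The 4 calcium-sensitive caseins were each below 5 TPM in the same tumors. Csn1s1 (alpha-s1 casein, chromosome 5, 87666208 to 87682578) stood at 3.14 TPM (2.51 to 3.88) with DMSO and 4.75 TPM (4.05 to 5.54) with C3G, from 85 and 163 reads. Csn1s2a, known in the mouse as gamma casein, stood at 1.71 TPM (1.12 to 2.51) and 3.06 TPM (2.33 to 3.95), from 26 and 59 reads. For both genes the C3G tumor was the higher one, with ratios of 1.51 (1.16 to 1.99) for Csn1s1 and 1.79 (1.11 to 2.96) for Csn1s2a. Csn1s2b, the delta casein, stood at 2.27 TPM (1.64 to 3.07) with DMSO and 1.92 TPM (1.40 to 2.57) with C3G, from 42 and 45 reads. Its ratio of 0.845 (0.543 to 1.32) did not separate the tumors at this depth. Csn2, the beta casein that is among the most abundant proteins of mouse milk, was at 0.167 TPM (0.0541 to 0.389) and 0.210 TPM (0.0908 to 0.414), from 5 and 8 reads. Its ratio of 1.26 (0.364 to 4.90) gave neither a direction nor a size at this depth, and 3 reads, taken as the floor, correspond to 0.0999 and 0.0788 TPM for this gene.

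Within the caseins the imbalance was large in both libraries. The summed TPM of the 4 calcium-sensitive caseins was 7.29 with DMSO and 9.95 with C3G, so that Csn3 stood 1454-fold and 1024-fold above the 4 together. Against Csn1s1 alone Csn3 was 3377-fold and 2145-fold higher, and per recovered read, without regard to length, 2244-fold and 1426-fold higher. These 5 genes share 1 cluster. From the start of Csn1s1 to the end of Csn3 it spans 266 kb of chromosome 5, with 101 kb between the end of Csn1s2b and the start of Csn3.

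The neighbours of Csn3 did not share its level. Within 150 kb of either end of the cluster the annotation held 22 further genes, of which 16 had no read in either library and 3 reached 1 TPM. These were Odam, a gene of the tooth-forming epithelium, at 2.51 TPM under DMSO and 2.25 TPM under C3G, the sulfotransferase gene Sult1d1 at 0.844 and 1.11 TPM, and the unnamed antisense locus Gm42794 at 0.276 and 1.31 TPM. Gm42794 rested on 1 and 6 reads. The antisense gene 1700066N21Rik, which spans Csn3, had no read, and no exonic base of any of the 10 milk protein genes was shared with another gene in GENCODE M21.

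**Figure D2:**
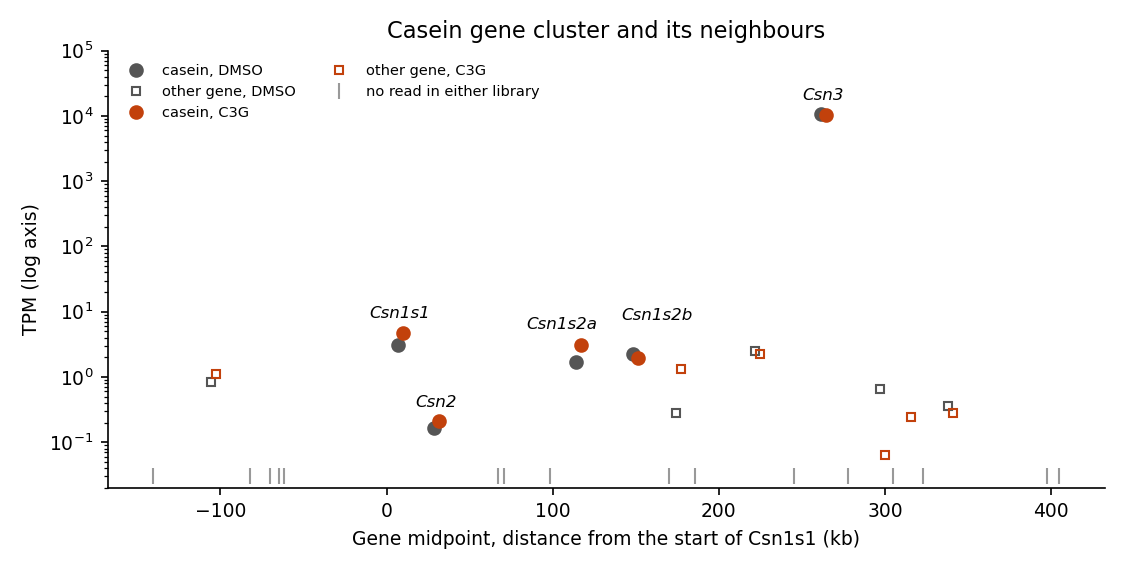
TPM (log axis) of the genes in the casein cluster against the distance of each gene's midpoint from the start of Csn1s1 (kb), in the DMSO (grey) and C3G (orange) tumors, with caseins as filled circles, other genes as open squares and genes without a read in either library as ticks at the bottom (a gene at 0 in 1 library has no point for it). Csn3 stands at 10186 TPM or more in both tumors, and every other gene of the window lies below 5 TPM.

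Gene length bears on these levels. The recovered whole reads show that TPM was computed per exon-union length, which counts retained introns as exon. For Csn3 that length is 4152 bases, against 991 for its principal transcript, a factor of 4.19, and 3 of its 6 annotated transcripts are retained introns. The factor was 4.43 for Csn1s1, 3.81 for Csn1s2a, 5.26 for Csn1s2b, 5.21 for Csn2, 3.40 for Glycam1 and 1.83 for Wap. It was 1.00 for Lalba, 1.02 for Cel and 1.08 for Lao1. Relative to Lalba, Cel and Lao1, the caseins therefore stand lower in TPM than per length of the principal transcript. Per length of the principal transcript, Csn3 made up 89.9% of the 10 genes' summed level with DMSO and 86.1% with C3G, and Lalba 9.94% and 13.5%. On that scale Csn1s1, at 0.0281% and 0.0424% of the summed level, stood above Cel, at 0.0129% and 0.0155%, while in TPM Cel stood above Csn1s1 in both tumors. A gene's own length is the same in both tumors, but the lengths of all genes enter the TPM total. From reads scaled to the library total, without length, the log2 ratio was -0.11 for Csn3 and 0.39 for Lalba, against -0.06 and 0.45 from TPM.

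Both major whey protein genes were higher in the C3G tumor. Lalba (ENSMUSG00000022991, chromosome 15, 98480400 to 98482721, minus strand) stood at 4909 TPM (4834 to 4985) with DMSO and 6700 TPM (6622 to 6778) with C3G, from 16409 and 28384 reads. It ranked 16 and 11 among all genes. The ratio was 1.36 (1.34 to 1.39), and 8 of the 108 genes with a mean of at least 1000 TPM had a higher log2 ratio. The ratio of Lalba to Csn3 within a library went from 0.463 with DMSO to 0.658 with C3G, a factor of 1.42 (1.39 to 1.45 by a normal approximation for counting error). That factor is the same for any 1 scale per library and for either gene length used. It does change when genes are centred by length, as given for Lalba and Csn3 below.

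Wap, which encodes whey acidic protein, a small cysteine-rich protein of rodent milk (chromosome 11, 6635482 to 6638637, minus strand), stood at 24.7 TPM (20.3 to 29.8) with DMSO and 68.4 TPM (61.7 to 75.7) with C3G, from 108 and 379 reads. Its ratio was 2.77 (2.23 to 3.46). Its rank among all genes was 5521 under DMSO and 2187 under C3G. Lalba stood 199-fold above Wap with DMSO and 97.9-fold above it with C3G. Lalba and Wap belong to the shortest eighth of genes by exon-union length, in which the median log2 ratio was -0.20, and Csn3 to the fifth eighth, in which it was 0.15. Centred on genes of similar length, an alternative added after the data were seen, the log2 ratios were 0.65 for Lalba, 1.63 for Wap and -0.21 for Csn3.

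Of the minor whey proteins, Lao1 had the highest ratio of the 9 genes for which one is given. Lao1 encodes an L-amino acid oxidase of mouse milk that forms hydrogen peroxide and acts against bacteria (chromosome 4, 118961578 to 118968912, plus strand). It stood at 3.18 TPM (2.22 to 4.42) with DMSO and 16.3 TPM (14.2 to 18.5) with C3G, from 35 and 227 reads, and the intervals did not overlap. The ratio was 5.12 (3.57 to 7.53). Cel, the bile salt-stimulated lipase that the pancreas and the mammary gland secrete, stood at 6.25 TPM (4.73 to 8.10) and 7.53 TPM (6.03 to 9.28), and its ratio of 1.20 (0.853 to 1.71) did not separate the tumors at this depth. Of 11 pancreatic acinar genes, 8 had no read in either library, among them Prss1, Prss2, Pnlip and Ctrb1. The other 3 were Cpa1 and Cpb1, with 1 read each in 1 library, and the elastase gene Cela1 at 2.30 and 5.84 TPM. Glycam1, a mucin-like protein of milk and of high endothelial venules, had 1 read in each library, below the floor of 3 reads, and no ratio is given. Chst4, a sulfotransferase of high endothelial venules, had no read in either library, and 2 of the 7 venule and lymph node genes listed reached a mean of 1 TPM. Of 8 salivary gland genes 2 did, the water channel gene Aqp5, at 589 and 697 TPM, and the amylase gene Amy1, at 3.48 and 8.66 TPM.

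**Figure D3:**
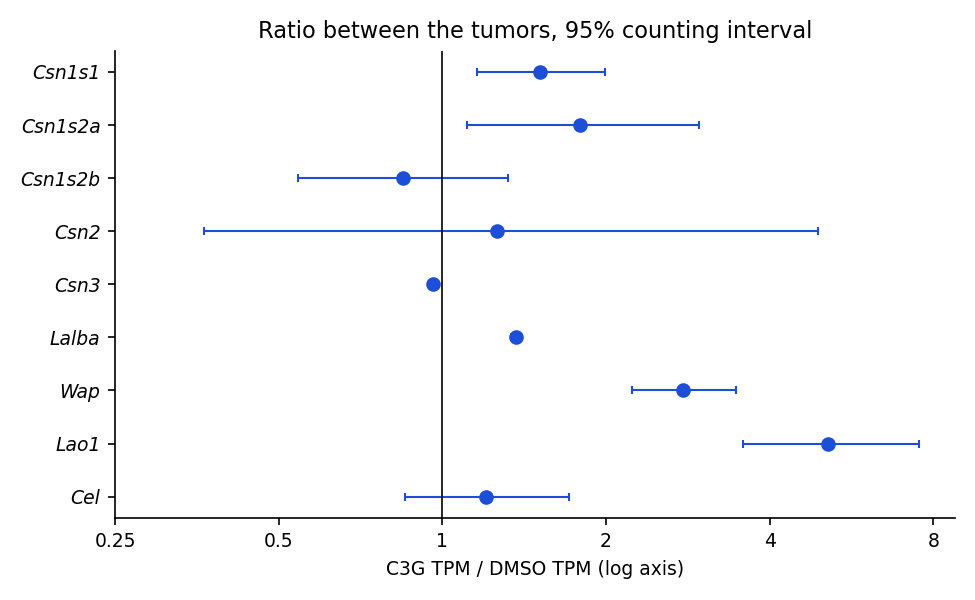
Ratio of C3G TPM to DMSO TPM (log axis) for 9 of the 10 genes, with exact conditional 95% intervals for counting error, Glycam1 being left out at 1 read per library. The intervals of Csn1s1, Csn1s2a, Lalba, Wap and Lao1 lie above 1, that of Csn3 lies below 1, and those of Csn1s2b, Csn2 and Cel span 1. The share of all genes whose interval leaves out 1 was not computed, so this is not read as particular to these genes. Intervals are narrow for abundant genes at this depth, as for Epcam, at 0.922 to 0.964.

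Ordered by TPM, the DMSO tumor had Csn3, Lalba, Wap, Cel, Lao1, Csn1s1, Csn1s2b, Csn1s2a, Csn2 and Glycam1. In the C3G tumor Lao1 stood above Cel, and Csn1s2a above Csn1s2b. Neighbours in this order with overlapping counting intervals were Lao1 and Csn1s1, Csn1s1 and Csn1s2b, Csn1s2b and Csn1s2a, and Csn2 and Glycam1 with DMSO. With C3G they were Csn1s2a and Csn1s2b, and Csn2 and Glycam1.

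Calls by size took genes with 5 TPM or more in at least 1 library and a log2 ratio, log2((C3G TPM + 1)/(DMSO TPM + 1)), of 1 or more in either direction. Over all 12780 genes that reached 5 TPM, 3.10% were higher and 4.30% lower with C3G. Of the 10 milk protein genes 5 reached 5 TPM, namely Csn3, Lalba, Wap, Lao1 and Cel. Among them 2 were higher by size, Wap with a log2 ratio of 1.43 and Lao1 with 2.05, and 0 were lower. Lao1 reached 5 TPM only with C3G, the library in which it was higher, so its place among the 5 rests on that library. Leaving out Glycam1, which did not pass the floor of 3 reads, 7 of 9 genes had log2 ratios above 0 and 2 below, with a median of 0.45, while 58.9% of the 17468 genes with a mean of at least 1 TPM were above 0, with a median of 0.10. The signs of Csn3 and Csn2 turned under at least 1 of the alternative scalings, and those of the other 7 genes held under all alternatives run.

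**Figure D4:**
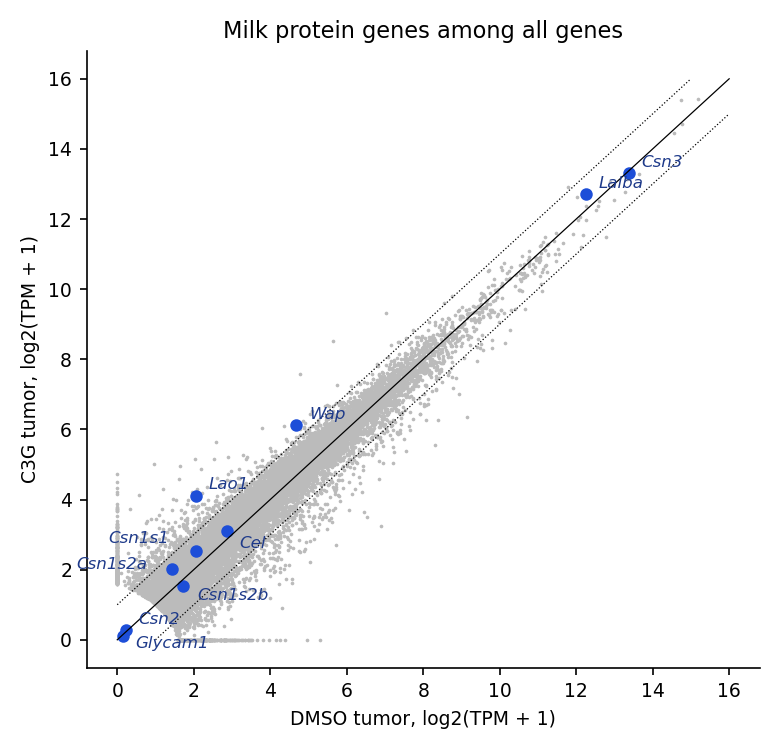
Log2(TPM + 1) in the C3G tumor against the DMSO tumor for genes that average 1 TPM or more (grey) and the 10 milk protein genes (blue), with the line of equal values and dotted lines at a log2 ratio of 1 in either direction. Wap and Lao1 lie above the upper dotted line, and Csn3 and Lalba lie at the abundant end near the line of equal values.

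The genes nearest in level to the 2 most abundant members were found by the distance of their log2(TPM + 1) over the 2 libraries. For Csn3 they were the mitochondrial genes mt-Nd4 (10265 TPM with DMSO and 8953 TPM with C3G, distance 0.19) and mt-Nd2 (distance 0.27) and the translation elongation factor gene Eef1a1 (distance 0.54). For Lalba they were the ribosomal protein gene Rplp1 (4927 and 5350 TPM, distance 0.32), mt-Nd5 (distance 0.39) and Igfbp5, an insulin-like growth factor binding protein gene (distance 0.46). A distance over 2 libraries describes closeness of level only.

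Genes of lactogenic signalling were present in both tumors. The prolactin receptor gene Prlr stood at 38.0 TPM under DMSO and 36.7 TPM under C3G, and Stat5a at 36.2 and 33.1 TPM. Stat5b stood at 35.9 and 45.0 TPM. Elf5, which marks alveolar luminal cells, was more abundant, at 222 and 235 TPM. All 23 listed genes reached a mean of 1 TPM, and 13 had log2 ratios above 0 and 10 below. The median was 0.03, against 0.10 over all genes, of which 58.9% were above 0. None of the 19 that reached 5 TPM was called by size. The log2 ratios of these 19 that were largest in size, in either direction, were those of Cav1, a caveolin that inhibits this pathway and is also abundant in fat and endothelial cells (38.4 and 69.3 TPM), the STAT5 target and feedback inhibitor gene Cish (5.21 and 8.53 TPM) and the luminal transcription factor gene Gata3 (365 and 239 TPM). Socs2, another STAT5 target that limits its signalling, stood at 45.6 and 31.0 TPM, on the other side of 0 from Cish. The glucocorticoid receptor gene Nr3c1 stood at 42.4 and 61.8 TPM. The lowest ratio of the list was that of the progesterone receptor gene Pgr, named after its values were seen, at 4.91 and 1.49 TPM. Its log2 ratio of -1.25 passed the size threshold, and it was not called only because it fell just short of 5 TPM.

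Lactose synthesis genes lay on both sides of 0. B4galt1, the catalytic partner of alpha-lactalbumin, stood at 116 TPM under DMSO and 155 TPM under C3G, a ratio of 1.34 (1.27 to 1.41), beside the ratio of 1.36 for Lalba. These 2 ratios are compared in TPM only. Centring by length moved the log2 ratio of Lalba from 0.45 to 0.65, and no such value is given for B4galt1. Slc35a2, which carries UDP-galactose into the Golgi, stood at 15.3 and 20.6 TPM. Of 11 genes 7 were above 0 and 4 below, with a median of 0.11, and none was called by size. Over all genes with a mean of at least 1 TPM, 58.9% were above 0, with a median of 0.10. Galt stood at 40.2 and 30.8 TPM, the phosphoglucomutase gene Pgm2 at 24.0 and 28.7 TPM and hexokinase Hk1 at 101 and 90.1 TPM.

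Genes of casein phosphorylation, milk ions and secretion had a median log2 ratio of 0.39. Of 12 measured genes, 8 were above 0 and 4 below, the lowest at -0.40. Over all genes with a mean of at least 1 TPM, 58.9% were above 0, with a median of 0.10. Fam20c, the Golgi kinase that phosphorylates caseins, stood at 6.62 TPM under DMSO and 12.3 TPM under C3G. The phosphate carrier gene Slc34a2 stood at 14.9 and 27.4 TPM and the zinc transporter gene Slc30a4 at 21.9 and 37.0 TPM. Of the 11 that reached 5 TPM, 2 were higher by size and 0 lower, against 3.10% and 4.30% of all genes that reached it. The 2 were Slc30a2, which exports zinc into milk, at 1.94 and 5.57 TPM, and the cysteine dioxygenase gene Cdo1, an enzyme of taurine synthesis, at 20.3 and 52.5 TPM. Slc30a2 reached 5 TPM only with C3G, the library in which it was higher. Among 20 genes of other milk proteins, 18 were measured, 10 were above 0 and 8 below, and the median was 0.15. The most abundant of them, named after their values were seen, was Wfdc18, a gene of the whey acidic protein domain family, at 8065 and 5929 TPM. Of the 17 genes of this list that reached 5 TPM, 2 were higher by size and 0 lower, against 3.10% and 4.30% of all such genes. The 2 were Lpl, a lipase that fat cells also make in quantity (33.4 and 90.3 TPM), and the acute phase gene Saa3 (6.82 and 16.2 TPM). Clu stood at 293 and 178 TPM, Xdh at 56.0 and 92.2 TPM and Aldoc at 248 and 400 TPM. Beside these values, all 10 adipocyte markers were above 0, with a median log2 ratio of 2.27, and all 8 endothelial markers, with a median of 1.18, and their part in these ratios was not tested.

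**Figure D5:**
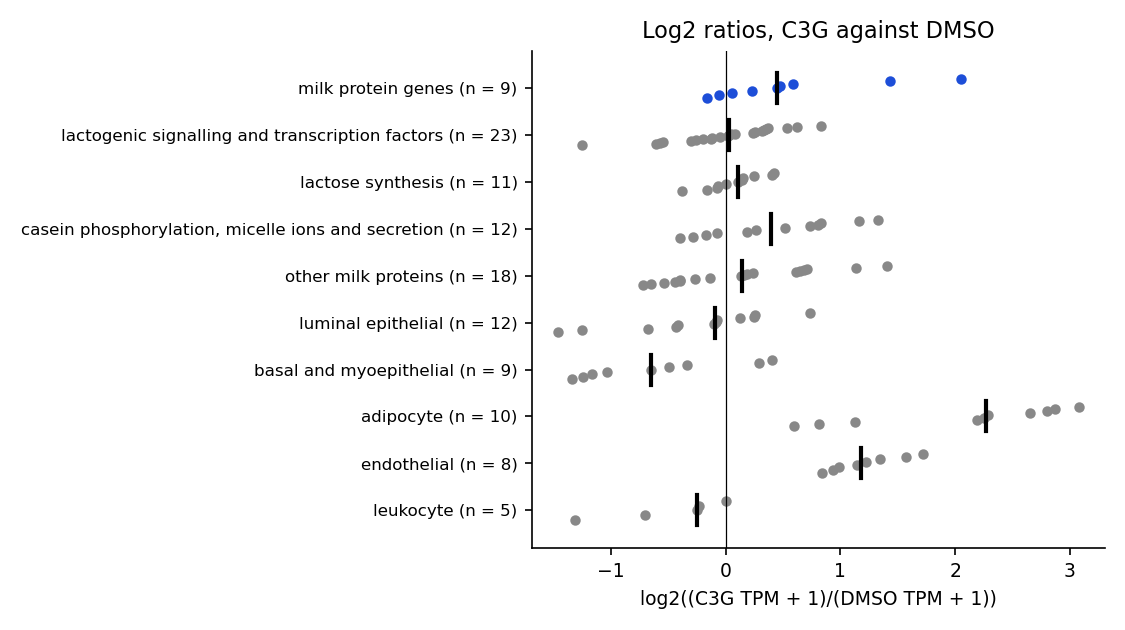
Log2 ratios of C3G against DMSO for 9 milk protein genes (blue, without Glycam1) and for members of other lists that average 1 TPM or more (grey), 1 point per gene, with a black bar at each list's median. The milk protein median of 0.45 lies above the lactogenic signalling median of 0.03 and below the adipocyte median of 2.27.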

How the data were processed

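RNA was measured in 1 tumor library per group. RNA came from RNeasy Plus kits and the libraries from the TruSeq RNA kit v2, which does not mark strand, per the labels' protocols. Per the submitters' processing notes, FastQC, MultiQC, Trimmomatic 0.38, featureCounts 2.0.0 and build mm10 were used; the aligner and the handling of multi-mapping reads are not given in the sources used here. The authors deposited TPM values for 55536 Ensembl genes, with a total of 1000000 TPM in each column.

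GENCODE M21 held every identifier. Multiplying TPM by exon-union length gave steps of 1 size in each library, which fitted 100% of the values above 0 to within 0.01 of a step, and a step was taken as 1 read or read pair. A share of reads has a Wilson 95% interval. No count test was run and no p-value computed. The log2 ratio used a pseudocount of 1, which understates the change of low genes. Lists were summarised over genes with a mean of at least 1 TPM. Scripts ran in Python 3.11.15 with scipy 1.17.1 and were tested on simulated data.

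All 10 members were named. From each pathway list up to 5 genes were named, those with the largest log2 ratio in size that reached 5 TPM, besides Prlr, Stat5a, Stat5b, Elf5 and B4galt1, and casein neighbours were named at 1 TPM. The members and lists were chosen with earlier results of these data known. Alternatives changed the pseudocount, the minimum TPM, the scaling, the unit and the length. Features of the proteins were not analysed here.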

Additional observations from a re-analysis of the deposited data

How the results depend on the processing

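No replicate was left out and no paired analysis was possible because each group has 1 library. The count of milk protein genes higher by size was 2 under 8 of 9 alternatives and 1 with a minimum of 20 TPM, which Lao1 does not reach. The count of lower ones was 0 under all 9.

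The share of the 10 genes was 1.70% (DMSO) and 1.63% (C3G) of recovered reads, 1.78% and 1.97% of TPM without mitochondrial genes, and 0.00415% and 0.0102% of TPM for the 8 genes other than Csn3 and Lalba. Lalba over Csn3 was 0.0860 and 0.122 per read and 0.111 and 0.157 per principal transcript length. The calcium-sensitive caseins over Csn3 were 0.000828 and 0.00118 per read.

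Log2 ratios over all alternatives run ranged from -0.21 to 0.04 for Csn3, 0.33 to 0.65 for Lalba, 1.31 to 1.63 for Wap and 1.38 to 2.32 for Lao1, the lowest of the last with a pseudocount of 5. They ranged from 0.26 to 0.58 for Csn1s1, 0.26 to 0.80 for Csn1s2a, -0.32 to -0.07 for Csn1s2b, -0.15 to 0.22 for Csn2 and 0.11 to 0.33 for Cel. The median of the lactogenic signalling list ranged from -0.16 to 0.12 and that of the lactose list from -0.01 to 0.20. Over all genes the calls were 396 higher and 550 lower as reported, 179 and 309 with a pseudocount of 5, 190 and 311 from scaled reads, 1086 and 1218 with no minimum, and 109 and 241 with a minimum of 20 TPM. Centring on genes with a mean of at least 10 TPM moved all log2 ratios by 0.12 and gave 298 and 663, and centring on luminal markers gave 503 and 470. Depth limits Csn2 and Glycam1, with 1 to 8 reads per library.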
